A study of Mus musculus with 10 samples.

Results

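The 10 genes described here encode metalloproteinases and their inhibitors: the matrix metalloproteinases Mmp8, Mmp9, Mmp12, Mmp13 and Mmp14, the aggrecan- and versican-cleaving proteases Adamts1 and Adamts4, and the tissue inhibitors of metalloproteinases Timp1, Timp2 and Timp3. They were chosen by name, with earlier results of these data known. All 10 were found among the 23284 genes of the count table and passed the filter on low counts that left 12918 genes for testing. Polyadenylated RNA came from macrophages grown out of C57BL/6J mouse bone marrow in macrophage colony-stimulating factor. The 5 groups were untreated cells, labelled as 0 h, and cells given Kdo2-lipid A, a ligand of Toll-like receptor 4, at 0.03 nM for 1 h, 0.03 nM for 2 h, 10 nM for 1 h or 10 nM for 2 h. Each group held 2 libraries, 1 from each of 2 experiments (replicates 1 and 2), so 10 libraries in all, and p-values measure only the spread between those experiments. No untreated cells were taken at 1 h or 2 h, so that changes against untreated cells and effects of time or handling cannot be told apart. Dose comparisons at one time do not have that limit.

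Metalloproteinases are zinc enzymes made as inactive precursors, and most are secreted or held at the cell surface, where they cut collagens, elastin, proteoglycans and also cytokines and receptors. Once active they are held in check by the Timp proteins, which bind the catalytic site. Macrophages are a known source of several of these enzymes in inflamed tissue, and Toll-like receptor ligands are known to alter their transcription. Only RNA was measured here, so the values say nothing of secretion, activation of the precursors or enzyme activity.

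The cells carried macrophage RNA: the 12 macrophage markers summed to between 32022 and 41702 CPM in every library (CPM are counts scaled to a common library size with trimmed-mean, TMM, factors). Library totals ran from 33179599 to 42167096 counts. The 0.03 nM 2 h libraries stood apart, with a standard deviation of the log2 difference between experiments of 0.274 over 8415 genes, against 0.126 to 0.195 in the other groups. The Spearman correlation of that difference with exonic length was -0.682 at 0.03 nM 2 h. It was 0.115 at 0.03 nM 1 h, -0.0286 at 10 nM 1 h, 0.369 at 10 nM 2 h and 0.344 in untreated cells. The share of all tested genes called at a Benjamini-Hochberg adjusted p under 0.05 (edgeR's quasi-likelihood test, used throughout with adjustment over all 12918 genes) was 1.53% at 0.03 nM 1 h, 9.82% at 0.03 nM 2 h, 36.9% at 10 nM 1 h and 58.7% at 10 nM 2 h, each against untreated cells. Scaling mattered at 10 nM. With library totals in place of TMM the median log2 change of all genes moved by -0.56 at 10 nM 2 h and by -0.37 at 10 nM 1 h, and the share of calls that were rises was 19.4% against 48.8% with TMM at 10 nM 2 h, 15.9% against 50.3% at 10 nM 1 h and 48.4% against 65.7% at 0.03 nM 2 h.

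The sequences before the start sites of 5 of the genes are shown because they include the 3 matrix metalloproteinases that rose at 10 nM, the inhibitor that rose with them and the inhibitor with the highest level. RefSeq promoter windows on GRCm38.p6, 250 bases before to 50 after a start, were given for 8 of the 10 genes, none for Mmp9 and Adamts4. Each line gives the 250 bases before the start, 5′ to 3′ on the strand of the gene, with matched motifs in capitals. The windows are chr9:7272264-7272513 (plus strand) for Mmp13, chr9:7347124-7347373 (plus) for the downstream of both Mmp12 starts, chr14:54431348-54431597 (plus) for Mmp14, chrX:20869916-20870165 (plus) for Timp1 and chr11:118355412-118355661 (minus) for Timp2.
Mmp13: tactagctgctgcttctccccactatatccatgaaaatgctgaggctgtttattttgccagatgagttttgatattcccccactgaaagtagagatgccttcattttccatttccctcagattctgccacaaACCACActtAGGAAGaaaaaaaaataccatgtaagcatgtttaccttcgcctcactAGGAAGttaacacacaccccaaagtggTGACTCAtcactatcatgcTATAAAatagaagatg
Mmp12: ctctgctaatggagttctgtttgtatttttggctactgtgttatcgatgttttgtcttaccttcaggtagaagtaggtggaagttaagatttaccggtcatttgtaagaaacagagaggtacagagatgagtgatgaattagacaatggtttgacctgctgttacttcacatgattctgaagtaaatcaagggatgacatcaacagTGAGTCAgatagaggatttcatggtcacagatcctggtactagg
Mmp14: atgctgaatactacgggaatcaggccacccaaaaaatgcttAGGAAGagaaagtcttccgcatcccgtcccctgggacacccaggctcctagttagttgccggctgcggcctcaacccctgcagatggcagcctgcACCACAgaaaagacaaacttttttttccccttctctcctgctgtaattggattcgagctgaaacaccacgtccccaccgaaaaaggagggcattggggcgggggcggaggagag
Timp1: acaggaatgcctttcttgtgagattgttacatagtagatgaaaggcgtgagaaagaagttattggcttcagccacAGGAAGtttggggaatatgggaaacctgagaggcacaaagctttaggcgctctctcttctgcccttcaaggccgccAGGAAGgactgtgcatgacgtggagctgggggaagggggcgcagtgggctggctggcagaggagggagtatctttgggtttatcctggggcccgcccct
Timp2: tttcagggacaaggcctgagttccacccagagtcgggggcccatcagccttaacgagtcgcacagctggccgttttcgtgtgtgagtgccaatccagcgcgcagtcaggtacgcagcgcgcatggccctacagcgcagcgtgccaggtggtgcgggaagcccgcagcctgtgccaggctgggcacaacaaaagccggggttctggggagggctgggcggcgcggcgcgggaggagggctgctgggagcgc

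Searched on both strands were the AP-1 motif TGANTCA, the TATA box TATAAA, the cyclic AMP response element TGACGTCA, the ETS motif AGGAAG, the RUNX motif TGTGGT and the NF-kB consensus, and no matches of different motifs overlapped in the sequences shown. The Mmp13 window held AP-1 at -35, TATAAA at -16, ETS at -109 and -62 and RUNX at -118 relative to the start. The downstream Mmp12 window held AP-1 at -44, and TATAAA at 5 bases after the start, which is not printed. The window of the upstream Mmp12 start, also not printed, held the NF-kB consensus at -129 and ETS at -87. None of the windows shown held the NF-kB consensus. The Mmp14 window held ETS at -209 and RUNX at -114. The Timp1 window held ETS at -175 and -99, and at 41 bases after the start (not printed), while none of these letter strings lay in the Timp2 window. Of 32851 RefSeq promoters of 300 bases, 7.81% held AP-1, 13.6% TATAAA, 35.4% ETS, 16.8% RUNX, 1.79% the cyclic AMP element and 8.46% the NF-kB consensus. A match is only a match of letters.

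The collagenase Mmp13 had the highest level of any protease described here after 2 h at 10 nM. In untreated cells it lay below Mmp12, Mmp14 and Mmp9 and above Mmp8, Adamts1 and Adamts4. Mmp13, which cuts fibrillar collagens, lies on chromosome 9 from 7272514 to 7283333, plus strand (mm9, as are all gene positions). It had 5.45 and 5.47 CPM in untreated cells of experiments 1 and 2, 5.33 and 8.24 CPM at 0.03 nM 1 h, 10.1 and 9.64 CPM at 0.03 nM 2 h, 116 and 146 CPM at 10 nM 1 h, and 854 and 1039 CPM at 10 nM 2 h. Both 10 nM groups lay far above all other libraries and apart from each other, and only the 0.03 nM 1 h group overlapped untreated cells. By level per kilobase of exon, Mmp13 ranked 317 and 261 of all genes at 10 nM 2 h, against 9274 and 9300 in untreated cells.

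The log2 fold change of Mmp13 against untreated cells was 7.44 ± 0.23 (SE) at 10 nM 2 h, a 173-fold rise (adjusted p = 3.98e-09), and 4.58 ± 0.21 at 10 nM 1 h, a 24.0-fold rise (adjusted p = 1.25e-07). At 0.03 nM 2 h it rose by 0.85 ± 0.20 (adjusted p = 0.0299). That low-dose call was lost without either untreated library (adjusted p of 0.157 without replicate 1 and 0.153 without replicate 2), without 0.03 nM 2 h replicate 1 (0.164) or replicate 2 (0.242), and with no filter on low counts (0.0874). At 0.03 nM 1 h it did not pass (0.31 ± 0.21, adjusted p = 0.908).

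**Figure D1:**
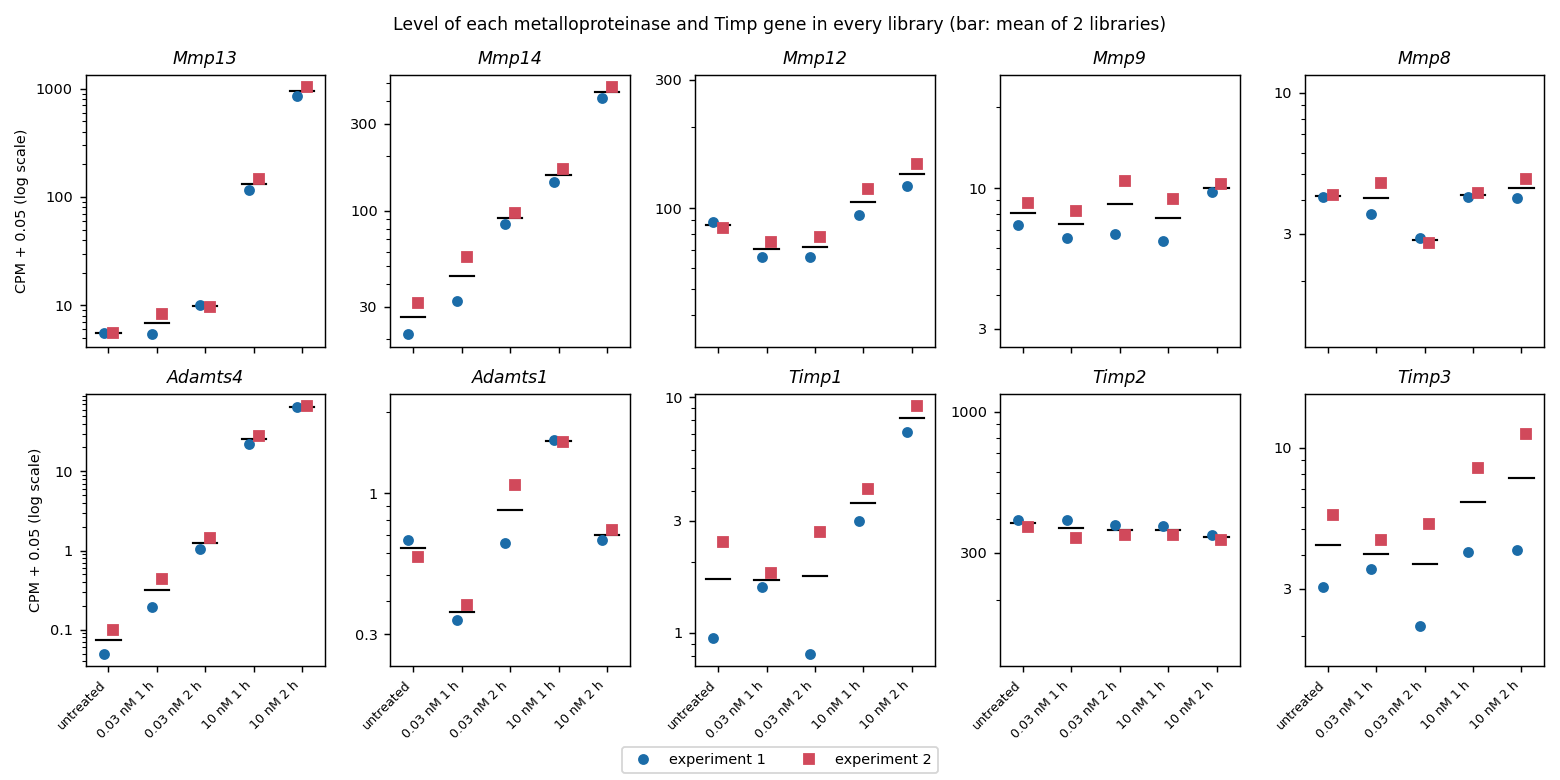
Level of each gene in every library, in CPM with 0.05 added so that a value of 0 can be drawn, on a log axis that differs between panels; circles are experiment 1, squares experiment 2 and bars the mean of 2 libraries. Mmp13, Mmp14 and Adamts4 are highest at 10 nM 2 h, Adamts1 at 10 nM 1 h, and Timp2 lies between 334 and 398 CPM in all 10 libraries.

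Mmp8, the neutrophil collagenase, was low in every group and did not pass against untreated cells. It lies on the same chromosome 9 segment (7558429 to 7568486, plus strand) and had 4.05 and 4.12 CPM in untreated cells, 3.49 and 4.58 CPM at 0.03 nM 1 h, 2.85 and 2.73 CPM at 0.03 nM 2 h, 4.05 and 4.20 CPM at 10 nM 1 h, and 4.01 and 4.75 CPM at 10 nM 2 h. The lowest group was 0.03 nM 2 h, which did not overlap any other. Against untreated cells its log2 change there was -0.55 ± 0.18, which did not pass (adjusted p = 0.0926). The 12 neutrophil markers in the table summed to 178 and 176 CPM at 10 nM 2 h, against 96.5 and 92.2 CPM in untreated cells, and 4 of the 12 rose there, a share near the 28.6% of all genes that did. Among the 4 was the receptor Csf3r (log2 0.99 ± 0.08, adjusted p = 5.64e-07). Csf3r alone made up most of each sum, with 139 and 144 CPM at 10 nM 2 h and 69.4 and 72.5 CPM in untreated cells. The other calls, of S100a8, S100a9 and Ngp, were lost with library totals, and those of S100a8 and Ngp also without 10 nM 2 h replicate 1 (adjusted p of 0.0719 and 0.0617) or untreated replicate 2 (0.0905 and 0.0508). Mmp8 did not pass there (0.10 ± 0.18, adjusted p = 0.669), and the part of neutrophil RNA in its level was not tested. With library totals as the scaling its change there was -0.46, past the threshold (adjusted p = 0.0372).

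Mmp12, the macrophage elastase, was the most abundant of the proteases per kilobase in untreated cells and rose 1.54-fold after 2 h at 10 nM. Its counts over exons between 7347374 and 7360461 of chromosome 9, plus strand, gave 88.9 and 84.6 CPM in untreated cells, 65.5 and 74.9 CPM at 0.03 nM 1 h, 65.8 and 78.0 CPM at 0.03 nM 2 h, 94.1 and 117 CPM at 10 nM 1 h, and 120 and 146 CPM at 10 nM 2 h. Both low-dose groups lay below untreated cells and both 10 nM groups above them. The rise at 10 nM 2 h was 0.62 ± 0.13 on the log2 scale (adjusted p = 0.00157), but with library totals the change was 0.06 (adjusted p = 0.671). At 10 nM 1 h the change of 0.29 ± 0.13 did not pass (adjusted p = 0.113). It passed with the experiment number as a block (adjusted p = 0.0437) and without 10 nM 1 h replicate 1 (0.0463), and turned to -0.08 with library totals. The low-dose changes of -0.31 at 1 h and -0.27 at 2 h did not pass (adjusted p of 0.609 and 0.257).

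Mmp9, the gelatinase B of leukocytes, did not pass in any of the 9 contrasts. From chromosome 2 (164773751 to 164781346, plus strand) it gave 7.24 and 8.75 CPM in untreated cells, 6.46 and 8.19 CPM at 0.03 nM 1 h, 6.71 and 10.6 CPM at 0.03 nM 2 h, 6.33 and 9.04 CPM at 10 nM 1 h, and 9.65 and 10.3 CPM at 10 nM 2 h. Experiment 2 was higher in all 5 groups, and the 10 nM 2 h libraries were both above the untreated ones. That group was at 3.17 ± 0.14 CPM per kb for Mmp9, against 2.55 ± 0.34 CPM per kb in untreated cells (SD, n = 2 each).

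Mmp14, the membrane-anchored metalloproteinase that activates the precursor of Mmp2 and cuts collagen at the cell surface, rose at both doses by 2 h. It lies on chromosome 14 from 55050441 to 55060095, plus strand. Its level was 21.1 and 31.5 CPM in untreated cells, 32.0 and 55.7 CPM at 0.03 nM 1 h, 84.4 and 97.9 CPM at 0.03 nM 2 h, 143 and 169 CPM at 10 nM 1 h, and 413 and 476 CPM at 10 nM 2 h. No group overlapped its neighbour in this order. The rise reached 4.08 ± 0.32 on the log2 scale at 10 nM 2 h (16.9-fold, adjusted p = 2.4e-05), 2.57 ± 0.30 at 10 nM 1 h (5.94-fold, adjusted p = 0.000467) and 1.79 ± 0.29 at 0.03 nM 2 h (3.47-fold, adjusted p = 0.00974). The last call was lost without 0.03 nM 2 h replicate 2 (adjusted p = 0.107). At 0.03 nM 1 h the change of 0.74 ± 0.29 did not pass (adjusted p = 0.609), but it did with the experiment block (0.0294) and without 0.03 nM 1 h replicate 1 (0.0385).

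Adamts4, an aggrecanase, was close to undetected in untreated cells and reached 64.4 and 66.5 CPM at 10 nM 2 h. The gene lies on chromosome 1 from 173180553 to 173190053, plus strand. It had 0 and 2 counts in untreated cells, 6 and 16 at 0.03 nM 1 h, 36 and 59 at 0.03 nM 2 h, 768 and 1069 at 10 nM 1 h, and 1962 and 1944 at 10 nM 2 h. No group overlapped the next. Because the fold rests on 2 untreated counts, it is given as a ratio of summed counts scaled for depth, with a 95% interval that covers counting error only. The ratio to untreated cells was 2730 (755 to 22553) at 10 nM 2 h, 1059 (293 to 8748) at 10 nM 1 h, 50.6 (13.6 to 424) at 0.03 nM 2 h and 11.0 (2.71 to 96.8) at 0.03 nM 1 h. The adjusted p was 6.17e-10, 5e-09 and 0.000238 in the first 3 of these, all rises, and 0.201 in the last. Both untreated counts were in replicate 2. The fitted log2 change was 11.23 at 10 nM 2 h, 10.31 without untreated replicate 1 and 14.25 without untreated replicate 2, which leaves untreated cells at 0 counts. At 10 nM 1 h it was 9.85, 8.94 and 12.88 in the same order, and at 0.03 nM 2 h 5.47, 4.55 and 8.50, and all of these passed.

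Adamts1, which also cuts aggrecan and versican, was low in every group and highest at 10 nM 1 h. On chromosome 16 (85794073 to 85803360, minus strand) it drew 26 and 22 counts in untreated cells, 12 and 14 at 0.03 nM 1 h, 22 and 43 at 0.03 nM 2 h, 53 and 57 at 10 nM 1 h, and 19 and 20 at 10 nM 2 h. In CPM the 10 nM 1 h libraries were the highest, at 1.53 and 1.51, against 0.619 and 0.530 in untreated cells, and did not overlap any other group. The rise of Adamts1 at 10 nM 1 h was 1.40 ± 0.37 on the log2 scale (2.63-fold, adjusted p = 0.0105), and the call was lost without 10 nM 1 h replicate 1 (adjusted p = 0.0504) or untreated replicate 2 (0.0764). At 10 nM 2 h it stood at 0.624 and 0.684 CPM and did not pass against untreated cells (adjusted p = 0.722). At 0.03 nM 1 h it was below untreated cells, by -0.87 ± 0.42, which did not pass (adjusted p = 0.697).

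Among the inhibitors Timp1 rose at 10 nM 2 h, Timp2 made up most of the inhibitor RNA and did not pass in any contrast, nor did Timp3. Timp1, a secreted inhibitor of most matrix metalloproteinases, lies on chromosome X from 20447292 to 20451863, plus strand, inside the gene Syn1 of the opposite strand. No exon bases are shared, and Syn1 drew 574 to 861 counts a library. Timp1 had 0.905 and 2.39 CPM in untreated cells, 1.52 and 1.75 CPM at 0.03 nM 1 h, 0.767 and 2.63 CPM at 0.03 nM 2 h, 2.95 and 4.04 CPM at 10 nM 1 h, and 7.06 and 9.13 CPM at 10 nM 2 h. Both 10 nM groups lay above every other library. The rise was 2.30 ± 0.54 on the log2 scale at 10 nM 2 h (4.91-fold, adjusted p = 0.00571). Over the 18 alternatives it ranged from 1.55 to 3.15, the highest without untreated replicate 2, and the call was kept.

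At 10 nM 1 h the Timp1 change of 1.09 ± 0.55 did not pass (adjusted p = 0.164). It passed with the experiment block (0.0203), and also without untreated replicate 2 or without either 0.03 nM 2 h library. In all it passed in 5 of the 18 alternatives. Over these 18 the change ranged from 0.55 to 1.95, the highest without untreated replicate 2, so its size depends on the untreated library used.

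Timp2, which inhibits metalloproteinases and at low levels also joins Mmp14 in activating the Mmp2 precursor, lies on chromosome 11 from 118162375 to 118216725, minus strand. It measured 396 and 374 CPM in untreated cells, 398 and 341 CPM at 0.03 nM 1 h, 381 and 349 CPM at 0.03 nM 2 h, 378 and 349 CPM at 10 nM 1 h, and 350 and 334 CPM at 10 nM 2 h. Only the 10 nM 2 h group lay wholly below untreated cells. Its log2 change there was -0.17 ± 0.09 and did not pass (adjusted p = 0.117). The 95% interval of the change was -0.40 to 0.06. It was taken with the 5 residual degrees of freedom, not those of the test, and is wider than the test would give. The same comparison passed with the experiment block (-0.17, adjusted p = 0.0494), without 0.03 nM 2 h replicate 2 (-0.20, 0.0283), with only the groups compared (-0.17, 0.0388) and with library totals (-0.73, 1.64e-05). With library totals Timp2 was also lower at 10 nM 1 h than in untreated cells (-0.45, adjusted p = 0.00113), so whether it fell at 10 nM depends on the scaling.

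Timp3, the matrix-bound inhibitor that also blocks Adam17 and the aggrecanases, lies on chromosome 10 from 85763157 to 85812250, plus strand. It had 3.00 and 5.59 CPM in untreated cells, 3.49 and 4.48 CPM at 0.03 nM 1 h, 2.14 and 5.17 CPM at 0.03 nM 2 h, 4.05 and 8.38 CPM at 10 nM 1 h, and 4.10 and 11.2 CPM at 10 nM 2 h. Experiment 2 was higher in every group, and all groups overlapped untreated cells. The change at 10 nM 2 h was 0.83 ± 0.65 on the log2 scale and did not pass (adjusted p = 0.319). With the experiment block it was 0.77 and passed (adjusted p = 0.0133), and without 10 nM 2 h replicate 2 it was -0.067 (0.945).

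The difference between experiments ran in one direction for several of these genes and for stromal markers. On the log2 scale Timp3 was higher in experiment 2 than in experiment 1 by 0.36 to 1.45, Timp1 by 0.20 to 1.78 and Mmp14 by 0.20 to 0.80 over the 5 groups. The 1.78 of Timp1, a gene with 0.89 kb of exon, was at 0.03 nM 2 h. There the difference between experiments had its correlation of -0.682 with exonic length, and the part of length in that value was not tested. The 12 stromal markers, such as collagens and Pdgfra, summed to 54.3 to 71.5 CPM in experiment 2 and 26.4 to 31.0 CPM in experiment 1. Of the 9 that were tested, 6 to 9 were higher in experiment 2, with a median log2 difference of 0.93 to 1.19, while between 45.6% and 54.1% of all genes were higher in it. The part of stromal RNA in the level of Timp3 and the other genes was not tested, and in such bulk RNA fewer cells of a type and less RNA per cell cannot be told apart. No stromal marker was at 0 in all 10 libraries. Lum, Thy1 and Fbln1, which were not tested, had 0 as their lowest count and at most 10, 8 and 15 counts a library. The summed level of stromal markers at 10 nM 2 h was 31.0 and 71.5 CPM, against 26.6 and 60.8 CPM in untreated cells, and 1 of the 9, the receptor Pdgfrb, rose there (log2 2.08 ± 0.24, adjusted p = 1.26e-05).

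**Figure D2:**
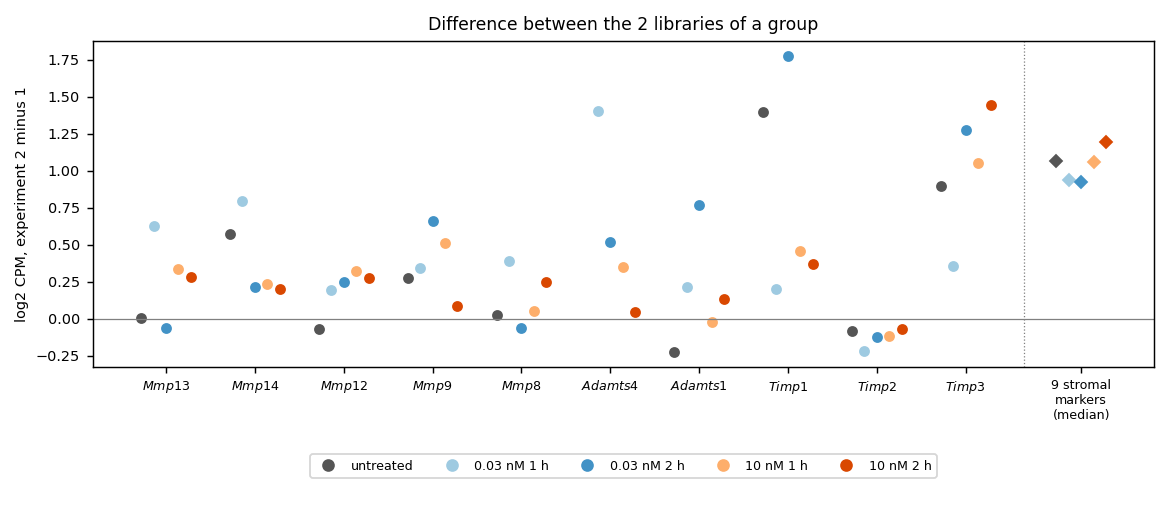
Log2 ratio of CPM in experiment 2 over experiment 1 within each group, for each gene (circles) and as the median of the 9 tested stromal markers (diamonds), coloured by group. Timp3 and the stromal markers lie above 0 in all 5 groups and Timp2 lies below 0 in all 5; Adamts4 has no point for untreated cells, where 1 library had 0 counts.

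Set against untreated cells, none of the 10 genes was called at 0.03 nM 1 h, where 1.53% of all genes were (1.42% up, 0.108% down). An unadjusted p under 0.05 was reached there by Adamts4 and Mmp14, as rises, and by Mmp12, as a fall. The share of all genes at that unadjusted threshold was not counted, so no excess can be read from these genes. By adjusted p, DESeq2 and limma on the deposited log2 values also called 0, and the experiment block called 1, Mmp14. At 0.03 nM 2 h 3 rose and none fell (all genes 6.45% up, 3.37% down). At 10 nM 1 h 4 rose and none fell (all genes 18.5% up, 18.3% down), and at 10 nM 2 h 5 rose and none fell (28.6% up, 30.1% down). The median log2 change of the 10 genes was 0.72 at 10 nM 2 h, beside -0.03 for all genes tested, and 0.81 at 10 nM 1 h, beside -0.02. These 4 comparisons share the same untreated libraries, and the 10 genes were chosen with earlier results of these data known.

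The groups can also be read by whether all their libraries lie apart. At 10 nM 2 h, 7 of the 10 genes lay wholly above untreated cells and 1 below (38.4% and 41.8% of all genes), and at 10 nM 1 h 6 lay above and none below (34.6% and 36.9%). At 0.03 nM 2 h, 3 lay above and 2 below (23.6% and 23.3%), and at 0.03 nM 1 h 2 lay above and 2 below (20.3% and 20.4%). Between doses, 6 lay higher at 10 nM and none lower at 1 h (34.8% and 36.4% of all genes), and likewise at 2 h (34.0% and 37.9%). From 1 h to 2 h, 6 lay higher and 1 lower at 10 nM (37.6% and 36.5%), and 4 higher and 1 lower at 0.03 nM (21.5% and 20.9%). With 2 libraries a group many genes lie apart. Against untreated cells the share of the 10 genes in each direction was near that of all genes at 0.03 nM, both at 1 h and at 2 h.

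**Figure D3:**
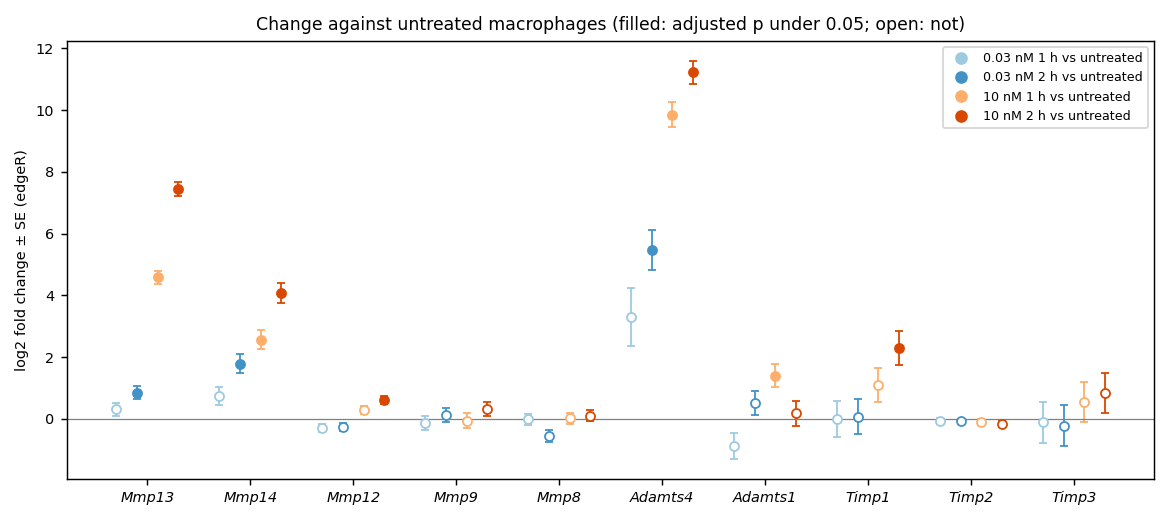
Log2 fold change against untreated cells with its standard error (edgeR) for the 10 genes, coloured by dose and time, filled where the adjusted p was under 0.05. Mmp13, Mmp14 and Adamts4 are filled at 0.03 nM 2 h and at both 10 nM times; the Adamts4 values rest on 2 untreated counts, so their height depends on the model's handling of low counts.

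Doses were compared at the same time. At 1 h, 5 of the 10 genes were higher at 10 nM than at 0.03 nM and none lower, beside 35.3% of all genes called (18.0% higher, 17.3% lower). These were Mmp13 (log2 4.27 ± 0.20, adjusted p = 2.23e-07), Adamts4 (6.56 ± 0.28, adjusted p = 1.32e-08), Adamts1 (2.27 ± 0.40, adjusted p = 0.000775), Mmp14 (1.83 ± 0.29, adjusted p = 0.00242) and Mmp12 (0.59 ± 0.13, adjusted p = 0.0042). Adamts1 stood at 1.53 and 1.51 CPM at 10 nM 1 h, against 0.289 and 0.335 CPM at 0.03 nM 1 h, and its groups did not overlap. The Adamts4 difference was 7.42 without 0.03 nM 1 h replicate 2. The Mmp12 call was lost without 10 nM 1 h replicate 2 (adjusted p = 0.0565) and with library totals (0.136), and the Mmp14 call with only the groups compared (0.0754). Timp1 did not pass (1.10 ± 0.55, adjusted p = 0.163) but did with the experiment block (0.0275), with only the groups compared (0.00607) and without 0.03 nM 2 h replicate 1 (0.0454) or replicate 2 (0.049). With library totals Timp2 passed as lower at 10 nM (-0.38, adjusted p = 0.0035).

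At 2 h, 6 of the 10 were higher at 10 nM than at 0.03 nM and none lower (all genes 52.8% called, 25.6% higher and 27.2% lower). Mmp13 differed by 6.59 ± 0.22 on the log2 scale (96.0-fold, adjusted p = 1.28e-08), Adamts4 by 5.75 ± 0.23 (adjusted p = 4.7e-09), Mmp14 by 2.29 ± 0.29 (adjusted p = 0.000452) and Timp1 by 2.23 ± 0.54 (adjusted p = 0.00755). Without 1 of the 0.03 nM 2 h libraries the Timp1 difference was 1.62 (replicate 1) or 3.36 (replicate 2), and both passed. Mmp12 differed by 0.89 ± 0.13 (adjusted p = 0.000137). Mmp8 differed by 0.65 ± 0.19 (adjusted p = 0.0115), a call lost without 0.03 nM 2 h replicate 2 (0.0615), without 10 nM 2 h replicate 2 (0.0904) and with library totals (0.16, 0.448). Timp3 (1.05 ± 0.66) did not pass at adjusted p = 0.23, but did with the experiment block (0.00306). Its difference was 0.16 without 10 nM 2 h replicate 2 (0.88) and 1.80 without 0.03 nM 2 h replicate 2 (0.183). Timp2 passed as lower at 10 nM only with library totals (-0.58, 0.00012), among the alternatives run. The share of calls that were rises was 18.4% with library totals and 48.5% with TMM at 2 h, and 15.5% and 50.9% at 1 h.

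Times were compared at the same dose. At 10 nM, 3 genes were higher at 2 h than at 1 h and 1 was lower, beside 42.8% of all genes called, 21.3% up and 21.5% down (29.2% of calls were rises with library totals, 49.7% with TMM). Mmp13 rose by a further 2.85 ± 0.18 on the log2 scale (7.22-fold, adjusted p = 2.17e-06), Mmp14 by 1.51 ± 0.28 (adjusted p = 0.0046) and Adamts4 by 1.37 ± 0.17 (adjusted p = 5.94e-05). Adamts1 fell by 1.21 ± 0.38 (adjusted p = 0.0217), a call lost without any 1 of the 4 libraries compared: adjusted p was 0.0819 and 0.0749 without 10 nM 1 h replicates 1 and 2, and 0.105 and 0.0738 without 10 nM 2 h replicates 1 and 2. Timp1 (1.21 ± 0.51, adjusted p = 0.09) and Mmp12 (0.33 ± 0.13, adjusted p = 0.0591) did not pass. With the experiment block they did (0.00731 and 0.0151). Mmp12 also passed with DESeq2 (0.0306), with limma on the deposited log2 values (0.0452) and without 10 nM 1 h replicate 2 (0.0263) or 10 nM 2 h replicate 1 (0.0361). Timp1 also passed with only the groups compared (0.000175) and without 0.03 nM 2 h replicate 1 (0.019) or replicate 2 (0.0217). Timp2 passed as lower at 2 h with library totals (-0.28, 0.025).

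At 0.03 nM, Adamts4 alone was called between 2 h and 1 h, as higher at 2 h (2.18 ± 0.40, adjusted p = 0.00913), beside 5.11% of all genes called, 3.51% up and 1.59% down (54.1% of calls were rises with library totals, 68.8% with TMM). The call was lost without 0.03 nM 1 h replicate 1 (0.0879) or 0.03 nM 2 h replicate 2 (0.0883) and with only the groups compared (0.108), and the value was 3.03 without 0.03 nM 1 h replicate 2. Mmp14 (1.06 ± 0.29, adjusted p = 0.107) passed with the experiment block (0.00106), with DESeq2 (0.0228) and without 0.03 nM 1 h replicate 2 (0.00598). Mmp13 (0.54 ± 0.20, adjusted p = 0.196) passed with DESeq2 (0.039) and without 0.03 nM 1 h replicate 2 (0.019). Adamts1 (1.38 ± 0.41, adjusted p = 0.0869) passed without 0.03 nM 2 h replicate 1 (0.0226).

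The change between 1 h and 2 h differed between doses for 2 of the 10 genes, beside 22.0% of all genes (10.4% up, 11.6% down; 30.9% of calls were rises with library totals and 47.4% with TMM). For Mmp13 the 2 h over 1 h change was larger at 10 nM than at 0.03 nM by 2.31 ± 0.27 on the log2 scale (adjusted p = 0.000285). For Adamts1 it was lower at 10 nM by -2.60 ± 0.56 (adjusted p = 0.00571): the gene was at 0.654 ± 0.043 CPM at 10 nM 2 h against 1.52 ± 0.02 CPM at 10 nM 1 h, and at 0.815 ± 0.301 CPM at 0.03 nM 2 h against 0.312 ± 0.033 CPM at 0.03 nM 1 h (SD, n = 2 each). Both passed under all alternatives that could be fitted. Timp1 (1.13 ± 0.76, adjusted p = 0.366) passed without 0.03 nM 2 h replicate 2, where the value was 2.27 (0.0356), and was 0.52 without replicate 1 of that group (0.585).

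The order of the 10 genes by level per kilobase changed with the dose. In untreated cells Timp2 came first, at 106 ± 4 CPM per kb, then Mmp12 (24.0 ± 0.8) and Mmp14 (10.1 ± 2.8), with Mmp9 (2.55 ± 0.34), Mmp13 (2.04 ± 0.01), Timp1 (1.85 ± 1.18) and Mmp8 (1.67 ± 0.02) next, Mmp13 overlapping Timp1 and Timp1 overlapping Mmp8. At 10 nM 2 h Mmp13 came first (354 ± 49 CPM per kb), then Mmp14 (171 ± 17), Timp2 (94.3 ± 3.1), Mmp12 (36.9 ± 5.0), Adamts4 (17.8 ± 0.4) and Timp1 (9.09 ± 1.65; SD, n = 2 throughout). In that group none of these 6 overlapped its neighbour.

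Summed per kilobase, the 7 proteases came to 0.350 and 0.393 of the 3 inhibitors in untreated cells, 0.321 and 0.514 at 0.03 nM 1 h, 0.546 and 0.676 at 0.03 nM 2 h, 1.24 and 1.61 at 10 nM 1 h, and 5.07 and 6.06 at 10 nM 2 h. Both 10 nM groups lay above 1 and the other groups below it. With TMM scaling the protease sum was 585 ± 72 CPM per kb at 10 nM 2 h against 40.6 ± 2.3 CPM per kb in untreated cells. The inhibitor sum was 105.1 ± 0.4 and 109 ± 3 CPM per kb in the same groups (SD, n = 2 each). How steady the inhibitor sum was depends on the scaling, since with library totals Timp2 changed by -0.73 on the log2 scale there. The ratio of the sums is one of RNA levels, was not tested, and, unlike the sums, is the same under any scaling of the libraries. Timp2 made up 87.9% to 98.8% of the inhibitor sum. Mmp13 was 59.8% and 61.1% of the protease sum at 10 nM 2 h, against 5.24% and 4.85% in untreated cells, and Mmp12 6.25% and 6.37% against 63.3% and 55.6%. Mmp14 had the largest share at 0.03 nM 2 h, at 55.9% and 55.4%.

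**Figure D4:**
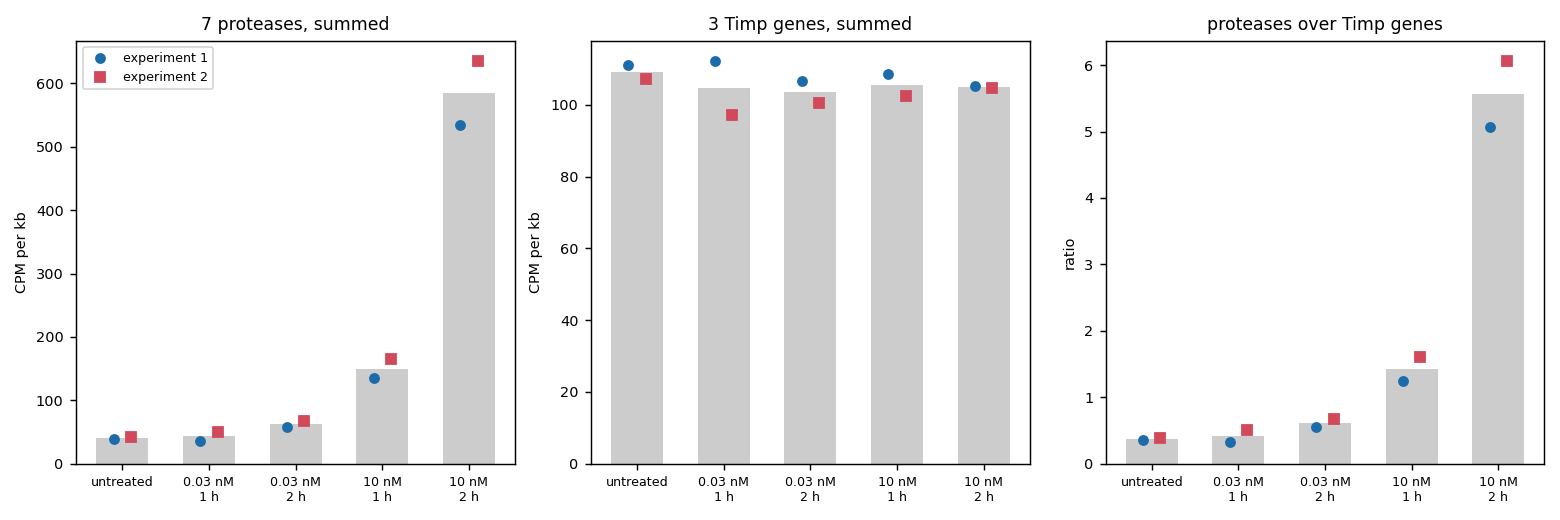
Sum of the 7 proteases per kb (left), sum of the 3 Timp genes per kb (middle) and their ratio (right) in every library, with bars at the mean of 2 libraries. With TMM scaling the protease sum is 585 CPM per kb at 10 nM 2 h and 40.6 in untreated cells, while the Timp sum lies between 97.1 and 112 CPM per kb in all libraries.

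Mmp13, Mmp12 and Mmp8 lie in a run of 10 Mmp genes on chromosome 9, from 7272514 to 7699416, over 427 kb. In this run 6 genes were tested and 2 were called at 10 nM 2 h against untreated cells, a lower share than the 58.7% of all genes called there. They were the neighbours Mmp13 (7.44) and Mmp12 (0.62, on the log2 scale, lost with library totals at 0.06). Mmp10, a stromelysin, had 1 to 29 counts a library and a log2 change of 1.53 that did not pass (adjusted p = 0.0824). Mmp3 (adjusted p = 0.81), Mmp8 (0.669) and Mmp27 (0.505) did not pass. The other 4, Mmp1a, Mmp1b, Mmp7 and Mmp20, had at most 6 counts in any library.

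Genes of the same families and of the pathways they work in were read from lists, also chosen with earlier results of these data known. The median log2 change at 10 nM 2 h, beside -0.03 for all genes, was 0.22 for other Mmp genes, -0.50 for other Adamts genes, 0.48 for the ADAM family, -0.08 for other inhibitors, 0.48 for activators and the plasminogen system, 2.02 for surface partners and 0.08 for matrix genes. The counts stand beside 58.7% of all genes called at 10 nM 2 h (28.6% up, 30.1% down), 36.9% at 10 nM 1 h (18.5% up, 18.3% down) and 9.82% at 0.03 nM 2 h (6.45% up, 3.37% down). Of 18 other Mmp genes 9 were tested, with 1 rise and no fall at 10 nM 2 h, 1 fall at 10 nM 1 h and 1 fall at 0.03 nM 2 h. Mmp25, a membrane-anchored member known from leukocytes, had 5.29 and 6.50 CPM at 10 nM 2 h, against 0.715 and 0.482 CPM in untreated cells (log2 3.29 ± 0.39, adjusted p = 1.43e-05). Both falls were of Mmp19, by 0.37 ± 0.11 at 10 nM 1 h (adjusted p = 0.0182) and by 0.47 ± 0.11 at 0.03 nM 2 h (adjusted p = 0.0147). The first call was lost without untreated replicate 1 (0.129) or 10 nM 1 h replicate 1 (0.159). The second was lost without untreated replicate 1 (0.134), untreated replicate 2 (0.0554) or 0.03 nM 2 h replicate 2 (0.0659), and with only the groups compared (0.0624). Of 22 other Adamts and Adamts-like genes 7 were tested and 1 fell at 10 nM 2 h, Adamts10. It had 16.4 and 14.4 CPM there, against 44.2 and 43.3 CPM in untreated cells (log2 -1.51 ± 0.11, adjusted p = 1.67e-07). Adamts10 was also called as lower at 0.03 nM 2 h (log2 -0.39 ± 0.10, adjusted p = 0.0316). Timp4 had at most 2 counts, and of 6 other inhibitors the 2 tested did not pass in any contrast.

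Membrane proteases of the ADAM family and their partners gave 6 rises and 2 falls at 10 nM 2 h among 13 tested, a share called near that of all genes (58.7%). Adam17, which sheds tumour necrosis factor from the cell surface, rose by 1.11 ± 0.08 on the log2 scale (adjusted p = 1.78e-07), and its partner Rhbdf2, which escorts it to the surface, by 3.04 ± 0.10 (adjusted p = 3.37e-10). Rhbdf2 had 524 and 518 CPM at 10 nM 2 h, against 61.6 and 64.7 CPM in untreated cells. Adam9 also rose (0.78 ± 0.09, adjusted p = 1.42e-05), and Adam19 fell by 1.07 ± 0.15 (adjusted p = 6.84e-05).

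The list of precursor activators and the plasminogen system, which is not of activators alone, had 12 tested genes. It gave 8 rises and no fall at 10 nM 2 h (28.6% and 30.1% of all genes), and 6 rises and no fall at 10 nM 1 h (18.5% and 18.3%). Plat, tissue plasminogen activator, had 25.1 and 26.7 CPM at 10 nM 2 h and 36.5 and 37.9 CPM at 10 nM 1 h, against 0.0476 and 0.289 CPM in untreated cells. Plaur, the urokinase receptor, rose by 4.50 ± 0.15 at 10 nM 2 h (adjusted p = 4.18e-10) and by 4.49 ± 0.15 at 10 nM 1 h (adjusted p = 7.31e-10). Urokinase itself, Plau, had 43.5 and 57.6 CPM at 10 nM 2 h and 157 and 161 CPM at 10 nM 1 h, against 43.1 and 40.5 CPM in untreated cells. It passed at 1 h (log2 1.93 ± 0.11, adjusted p = 6.66e-08) and not at 2 h (0.27 ± 0.11, adjusted p = 0.0507). Furin, which cleaves the precursor of Mmp14, rose by 0.96 ± 0.08 at 10 nM 2 h (adjusted p = 6.32e-07).

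Of 12 surface partners and clearance receptors, all tested, 9 rose and 1 fell at 10 nM 2 h (28.6% and 30.1% of all genes). Cd44, a hyaluronan receptor that holds Mmp9 and Mmp14 at the cell surface, had 1648 and 1663 CPM there, against 229 and 245 CPM in untreated cells (log2 2.80 ± 0.08, adjusted p = 1.2e-10). The heparan sulfate proteoglycan Sdc4 rose by 5.75 ± 0.13 (adjusted p = 2.81e-11), its relative Sdc1 by 1.45 ± 0.08 (adjusted p = 1.47e-08) and the fibronectin receptor subunit Itga5 by 3.57 ± 0.17 (adjusted p = 4.27e-08). Matrix genes gave 3 rises and no fall among 18 tested, a lower share called than the 58.7% of all genes. Vcan, the proteoglycan versican that Adamts1 and Adamts4 cut, had 34.0 and 42.4 CPM at 10 nM 2 h, against 2.24 and 2.99 CPM in untreated cells (log2 3.87 ± 0.24, adjusted p = 1.29e-07). Spp1, osteopontin, rose by 1.08 ± 0.08 (adjusted p = 1.81e-07). Lamc1, a laminin chain, rose by 0.37 ± 0.10 (adjusted p = 0.00565), which was lost without 10 nM 2 h replicate 2 (0.0611) and was -0.18 with library totals. Thbs1, thrombospondin, passed at 10 nM 1 h (1.00 ± 0.15, adjusted p = 0.000413) and not at 10 nM 2 h (0.36 ± 0.15, adjusted p = 0.0591).

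**Figure D5:**
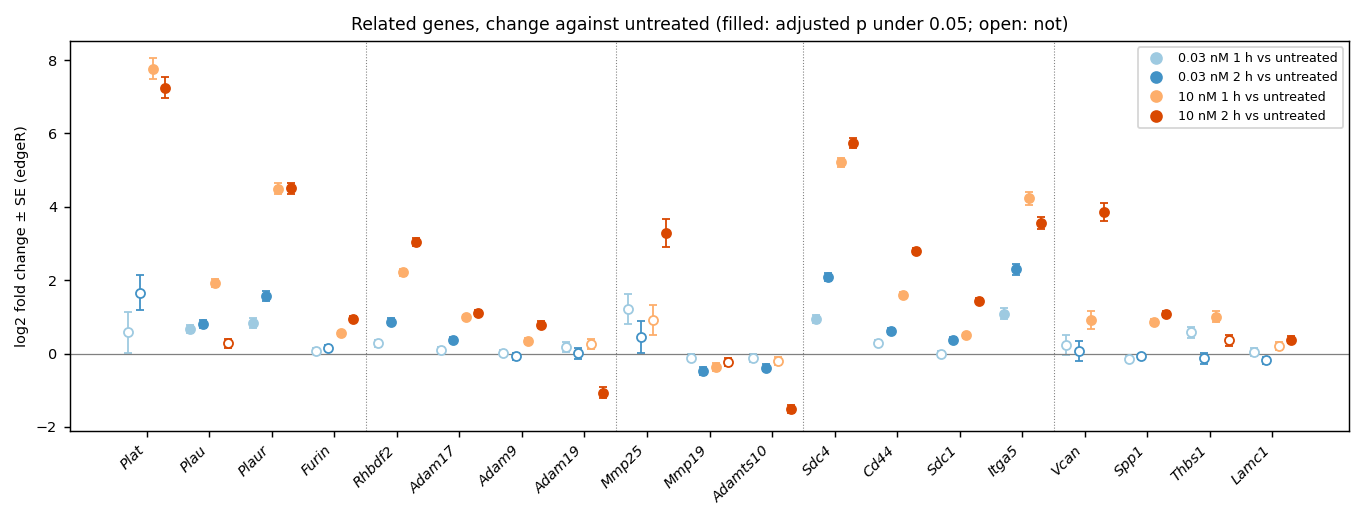
Log2 fold change against untreated cells with its standard error for the related genes named by the rule, filled where the adjusted p was under 0.05; dotted lines part, from left, the plasminogen system and furin, the ADAM family with Rhbdf2, other Mmp and Adamts genes, surface partners and matrix genes. Sdc4, Plaur, Rhbdf2 and Cd44 are filled at both 10 nM times, Plau at every time except 10 nM 2 h, and Adamts10 and Adam19 lie below 0 at 10 nM 2 h.

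For each gene the other gene with the most similar profile was sought by Pearson correlation of log2 CPM over the 10 libraries, which share the same 5 groups and 2 experiments, among 10332 others with a mean of at least 1. Mmp13 was most like Ikzf1 (r = 0.998) and Ikbkb (0.998), Mmp14 like Fpr2 (0.994) and Ikbke (0.992), and Adamts4 like Ccl4 (0.997) and Cd40 (0.997). Ikzf1 had 642 ± 30 CPM at 10 nM 2 h, against 104 ± 1 CPM in untreated cells (SD, n = 2 each). Timp1 was most like Sf3a2 (0.965), Mmp12 like Tcirg1 (0.962) and Timp2 like Atp6v0d2 (0.928). Timp3 was most like Ctgf (0.928), Adamts1 like Itgb1bp1 (0.961), among 10333 genes, Mmp8 like Elf1 (0.908) and Mmp9 like Cdk11b (0.964). Correlations near 1 are common where many genes follow the same dose and time order.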

How the data were processed

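Polyadenylated RNA from 10 libraries of mouse bone-marrow-derived macrophages was sequenced on an Illumina NextSeq after preparation with a directional kit, per the labels' protocols. Named in the submitters' processing notes are featureCounts (version 1.4.5-p1), the aligner TopHat2 (version 2.0.11), DESeq2, the build mm9 and bcl2fastq (version 2.15.0.4). Whether reads were counted by strand is not given in the sources used here, so genes whose exons overlap on opposite strands may not be told apart. Of the 10 genes, Timp1 overlaps Syn1 and Timp3 overlaps Syn3 on the opposite strand, and Timp2 overlaps BC100451 on the same strand. None of these pairs shares exon bases. The deposited raw counts are whole reads per gene, and positions and exonic length come from the same table, per the file headers. The authors also deposited regularised log2 (rlog) values, used here as an alternative.

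Counts were fitted in edgeR 4.0.16 (R 4.3.3): filterByExpr on the 5 groups, TMM scaling, a robust quasi-likelihood model with one mean per group, and 9 contrasts. Levels between genes are CPM per kb. The calling threshold was an adjusted p of 0.05. The script was tested on simulated data. limma 3.58.1 and DESeq2 1.42.0 were alternatives, with other scalings, no filter, only the groups compared, the experiment as a block, and each library left out. Experiment numbers come from the labels; deviations from group means correlated between groups at 0.0397 to 0.236 (median 0.177, 7 of 10 pairs above 0.1), and the 2 libraries of each group differed by more than sampling noise (chi-square per degree of freedom 10.6 to 39.3).

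The genes described and the lists of related genes were chosen with earlier results of these data known. Chosen to be named from each list were all called genes where 4 or fewer were called against untreated cells, otherwise the 4 with the smallest p, and for each of the 10 genes the 2 closest by correlation, of which some are shown. Of the marker lists, only part of the genes so chosen are named. Depth was 33179599 to 42167096 counts a library. Counting intervals (95%) cover counting error only. Promoter sequences are from RefSeq, GRCm38.p6, matched by symbol for 8 of 10 genes.

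Of the other marker lists, the 8 endothelial genes summed to 64.6 to 86.3 CPM (1 of 5 tested, Kdr, rose at 10 nM 2 h against untreated cells, beside 28.6% of all genes up and 30.1% down), the 8 osteoclast genes in the table to 182 to 243 CPM (of 6 tested Acp5 rose and 2 fell, Nfatc1 and Atp6v0d2, both lost with DESeq2 at 0.0749 and 0.0577 and without either library of untreated cells or of 10 nM 2 h) and the 7 dendritic cell genes to 9.09 to 19.4 CPM (4 of 7 rose, of which Flt3 and Xcr1 were lost with library totals at 0.277 and 0.106 and without untreated replicate 2 or 10 nM 2 h replicate 2, and Xcr1 also without untreated replicate 1). Of the 12 macrophage markers 4 rose and 1 fell.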

Additional observations from a re-analysis of the deposited data

Results flagged for a closer look

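Among the 10 genes, 2 had a change between 1 h and 2 h that differed between the doses by the test of the difference itself (edgeR's quasi-likelihood test, adjusted over all genes tested). For Mmp13 the difference was 2.31 on the log2 scale, with a 2 h over 1 h change of 2.85 at 10 nM and 0.54 at 0.03 nM. For Adamts1 the difference was -2.60, with a 2 h over 1 h change of -1.21 at 10 nM and 1.38 at 0.03 nM. Adamts1 rests on 12 to 57 counts a library.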

How the results depend on the processing

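Of 30 member results called over the 9 contrasts, 21 kept the call in all 18 alternatives that could be fitted, 9 lost it at least once and none changed sign. Of 60 uncalled results 18 were called at least once. The cause was not tested in any case. With library totals the Mmp12 change at 10 nM 1 h was -0.080, that of Mmp8 at 10 nM 2 h -0.46, that of Adam9 at 10 nM 1 h -0.022 and that of Lamc1 at 10 nM 2 h -0.18. With 1 library left out at a time, Timp3 ranged over -0.085 to 1.05 at 10 nM 1 h and -0.067 to 1.38 at 10 nM 2 h, Mmp8 over -0.030 to 0.22 at 10 nM 2 h, and Timp2 over -0.13 to 0.092 between doses at 1 h. The Adamts4 interaction was 0.26 with limma on the deposited log2 values. Over results given by level alone there were 58 further sign changes.

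Leaving out 1 library each, the genes called numbered 0 to 1 at 0.03 nM 1 h, 1 to 3 at 0.03 nM 2 h and 0 to 3 for time at 0.03 nM, where DESeq2 called 3 and only the groups compared 0. The related genes of the lists called numbered 4 at 0.03 nM 1 h (2 to 6 without 1 library) and 11 at 0.03 nM 2 h (6 to 16 without 1 library, 7 with only the groups compared). The lists held 9, 7, 13, 2, 12, 12 and 18 tested genes, in the order in which their medians are given. Of all genes, 1.53% were called at 0.03 nM 1 h and 9.82% at 0.03 nM 2 h. Of 76 calls of named list genes against untreated cells, 27 were lost at least once. With the experiment number as a replicate block, 1 gene was called at 0.03 nM 1 h and 2 for time at 0.03 nM. The block changed no call of the 10 genes beyond those given beside the results.

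The ratio of proteases to inhibitors without division by length was 0.336 in untreated cells, 0.505 at 0.03 nM 2 h, 1.16 at 10 nM 1 h and 4.49 at 10 nM 2 h. Without Timp2 it was 17.2 in untreated cells, 15.9 at 0.03 nM 1 h, 30.5 at 0.03 nM 2 h, 29.1 at 10 nM 1 h and 55.5 at 10 nM 2 h. These means hide a wide spread: experiments 1 and 2 gave 23.5 and 10.9 in untreated cells, 44.2 and 16.7 at 0.03 nM 2 h, and 32.2 and 26.0 at 10 nM 1 h, so the order of the last 2 groups differed between experiments.

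All genes called at 0.03 nM 1 h numbered 198, but 78 and 114 without untreated replicates 1 and 2 and 113 without 0.03 nM 1 h replicate 2. At 0.03 nM 2 h they numbered 1268, but 655 with only the groups compared, 668 and 650 without untreated replicates 1 and 2, and 3128 without 0.03 nM 2 h replicate 1. Library totals gave 8035 calls in place of 4761 at 10 nM 1 h and 7789 in place of 4558 between doses at 1 h. For time at 0.03 nM, 660 became 198 with only the groups compared, 285 without 0.03 nM 1 h replicate 1 and 2833 without 0.03 nM 2 h replicate 1. The interaction had 2846, and 1897 without 10 nM 1 h replicate 1. Leaving out both 0.03 nM 2 h libraries, chosen after seeing the data, changed the call of Timp1 at 10 nM 1 h (adjusted p = 0.0488) and for time at 10 nM (0.0219), and of Timp2 at 10 nM 2 h (0.0337).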
